A study of Mus musculus with 43 samples.

Results

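The genes described are 36 that encode the machinery of macroautophagy and its cargo receptors: the kinase complex that starts the pathway, the lipid kinase complex and its regulators, factors that supply and tether membrane, the conjugation enzymes and ATG4 proteases, the ATG8 proteins and 5 receptors. They were chosen by symbol, for their role in the pathway and with earlier results of these data known, from the 24327 symbols of the FPKM table and the 25080 symbols of the TPM table. All 36 were found in both tables, and the mean of each, taken over a system's libraries, reached the minimum of 1 set for a test.

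Autophagy encloses part of the cytoplasm in a double membrane, the autophagosome, which then fuses with a lysosome. The ULK1 complex starts the process when the nutrient sensor mTORC1 is inactive, the class III PI3-kinase complex then makes the lipid PI3P, and WIPI proteins that bind PI3P bring in a conjugation system that joins ATG8 proteins to membrane lipid. Receptors such as p62, the product of Sqstm1, bind both ubiquitin-marked cargo and ATG8 proteins and are themselves degraded with the cargo, so that their protein level also reports on flux. Stress of the endoplasmic reticulum (ER) is known to engage the pathway through the transcription factors Atf4 and Ddit3 (CHOP) in mouse fibroblasts. RNA levels alone do not measure autophagic flux.

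Polyadenylated RNA was measured in 43 libraries of mouse embryonic fibroblasts (MEF), in 13 groups and 3 systems. In the siRNA system, cells with a Son siRNA or a control siRNA received tunicamycin or its solvent DMSO (4 groups of 4 libraries). In the CRISPRa system, in which a guide RNA (sgRNA) directs a transcriptional activator to a gene, cells with a Son sgRNA or a control sgRNA received tunicamycin or DMSO (4 groups of 3 libraries). In the drug system, wild-type cells received 3 µM nintedanib, 1 µM ponatinib, 3 µM proflavine, 1 µM pyrvinium or DMSO for 24 h (5 groups of 3 libraries). Son is a nuclear speckle protein that binds RNA and takes part in splicing, and tunicamycin blocks N-linked glycosylation in the ER. Nintedanib and ponatinib inhibit tyrosine kinases, proflavine is an acridine that intercalates into DNA, and pyrvinium is a cyanine dye used against pinworm. The dose and duration of tunicamycin, the mouse strain, the number of clones and the activator line are not stated in the labels used. FPKM libraries are called by the letters of their columns and TPM libraries by number. The genotype label of the Son sgRNA libraries names overexpression, and their columns are headed Son_oe. Control columns headed Scramble were taken as control siRNA and those headed Nt as control sgRNA, from these names and the number of columns.

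Summed values ran from 392308 to 422871 FPKM in the siRNA libraries, from 380638 to 498414 FPKM in the CRISPRa libraries and from 952123 to 989105 TPM in the drug libraries. The steps between low values gave the reads per unit of value, a rough guide to depth and not a measure of it. In the siRNA libraries these were 0.901 to 1.21 times those of the first library. They were 0.8293 to 1.0 times those of the first library in the CRISPRa system and 1.0 to 1.61 times in the drug system. Of 7 fibroblast markers, Col1a1 and Vim were high in every group, at mean levels of 464 to 2278 for Col1a1 and 370 to 2511 for Vim, and Pdgfrb had 8.91 to 41.7. Col1a2 (0.101 to 10.9), Pdgfra (0.592 to 4.64), Dcn (0.210 to 6.41) and Thy1 (at most 0.121) were low, so that the summed markers rest on Col1a1 and Vim. The leukocyte marker Ptprc was at most 0.0189. The lowest Vim was that of pyrvinium, at 370 TPM against 2255 TPM in DMSO, and the summed 7 fibroblast markers were 3062 to 3109 TPM with nintedanib, 3059 to 3194 TPM with ponatinib, 3246 to 3401 TPM with proflavine and 879 to 1035 TPM with pyrvinium, against 4556 to 4614 TPM in DMSO; the part of this shift in the drug results was not tested. In such bulk samples, fewer cells of a type and less RNA per cell cannot be told apart. Son, the target, fell to 21.8 ± 0.970 FPKM with Son siRNA in DMSO, against 43.5 ± 0.979 FPKM with control siRNA (SD, n = 4 each), and to 15.4 ± 1.14 FPKM in tunicamycin, against 36.03 ± 0.908 FPKM. With the Son sgRNA, Son had 42.1 ± 11.3 FPKM in DMSO, against 47.4 ± 0.971 FPKM with control sgRNA, and 40.9 ± 5.30 FPKM in tunicamycin, against 42.4 ± 1.29 FPKM (SD, n = 3 each). Son was thus not higher under the activating guide, although the genotype label names overexpression, and these groups are called the libraries labelled Son sgRNA. One of them, library C in DMSO, had the highest summed FPKM of its system and 29.8 FPKM of Son, and stood apart in several members named below.

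A gene was called raised or lowered at an adjusted p under 0.05 in limma on log2(value + 1), adjusted over all genes tested in the system. Fold changes are on this scale, on which the change of low genes is understated, and the error beside each is its standard error. Errors beside levels are SDs. Separate cultures are not stated in the labels. The TPM columns are headed brep with a number, which may stand for biological replicate, and the FPKM columns carry letters only. The p-values thus reflect the spread among these libraries, which may be technical. Comparisons of one system share control libraries, so that counts from them are not independent of each other.

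Unstimulated levels are given as means with control siRNA in DMSO, in FPKM, and then with DMSO in the drug system, in TPM; the FPKM and TPM tables were normalised separately and only the order within each is comparable. Sqstm1, the p62 receptor, and Gabarap, an ATG8 protein, led both tables, with 198 and 199 FPKM and with 519.7 and 519 TPM. Their spreads overlapped with control siRNA and with DMSO in the drug system, so that these groups do not order them. With control sgRNA in DMSO they were apart, with 243.5 ± 5.67 FPKM of Sqstm1 and 222.6 ± 4.06 FPKM of Gabarap (SD, n = 3). Of the other ATG8 genes, Map1lc3b had 80.2 FPKM and 147 TPM, Gabarapl2 68.2 FPKM and 196 TPM, Map1lc3a 51.7 FPKM and 115 TPM, and Gabarapl1 36.6 FPKM and 77.98 TPM. Among the other receptors, all of which bind ATG8 proteins, Tax1bp1 had 47.1 FPKM and 108 TPM, Nbr1 had 41.6 FPKM and 94.7 TPM, Calcoco1, a receptor for ER and Golgi, had 21.04 FPKM and 60.1 TPM, and Optn, a receptor for mitochondria and bacteria, had 14.2 FPKM and 28.9 TPM.

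The ULK1 complex was uneven in level. Atg101, which stabilises Atg13, had 38.8 FPKM and 73.3 TPM, Atg13, its partner, 13.9 FPKM and 31.4 TPM, the kinases Ulk1 and Ulk2 11.2 and 6.07 FPKM and 32.7 and 16.7 TPM, and the scaffold Rb1cc1 (FIP200) 10.4 FPKM and 22.9 TPM. In the class III PI3-kinase complex, Becn1 (beclin 1) was the highest and also above most receptors, with 48.5 FPKM and 122 TPM. The catalytic Pik3c3 had 12.5 FPKM and 24.2 TPM, the regulatory Pik3r4 8.74 FPKM and 19.3 TPM, Atg14, which directs the complex to autophagosomes, 5.61 FPKM and 10.3 TPM, its endosomal alternative Uvrag 13.8 FPKM and 32.8 TPM, and the beclin 1 regulator Ambra1 12.8 FPKM and 26.5 TPM. Of the PI3P binders, Wipi2, which recruits Atg16l1, had 28.4 FPKM and 53.9 TPM and Wipi1 12.5 FPKM and 37.1 TPM. With control sgRNA in DMSO this order did not hold, at 26.8 FPKM of Wipi2 and 28.6 FPKM of Wipi1. The lipid scramblase Atg9a had 14.2 FPKM and 47.6 TPM, and the lipid transfer proteins Atg2a and Atg2b 8.77 and 6.08 FPKM and 24.9 and 14.6 TPM.

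The conjugation system held the lowest levels. Atg3, the enzyme that passes ATG8 proteins to lipid, had 20.7 FPKM and 57.04 TPM, and Atg7, which activates ATG8 proteins and Atg12, 7.88 FPKM and 12.8 TPM. Atg12, Atg5 and Atg16l1, which form the complex that marks where conjugation takes place, had 16.8, 13.9 and 12.4 FPKM and 34.7, 29.2 and 19.4 TPM. Of the ATG4 proteases, which trim ATG8 proteins, Atg4b was the highest with 14.9 FPKM and 31.1 TPM, Atg4d followed with 9.30 FPKM and 21.1 TPM, and Atg4a and Atg4c had 2.70 and 2.74 FPKM and 13.3 and 6.80 TPM. Atg10, the enzyme that joins Atg12 to Atg5, was the lowest member in these groups, with 1.93 FPKM and 5.44 TPM.

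**Figure D1:**
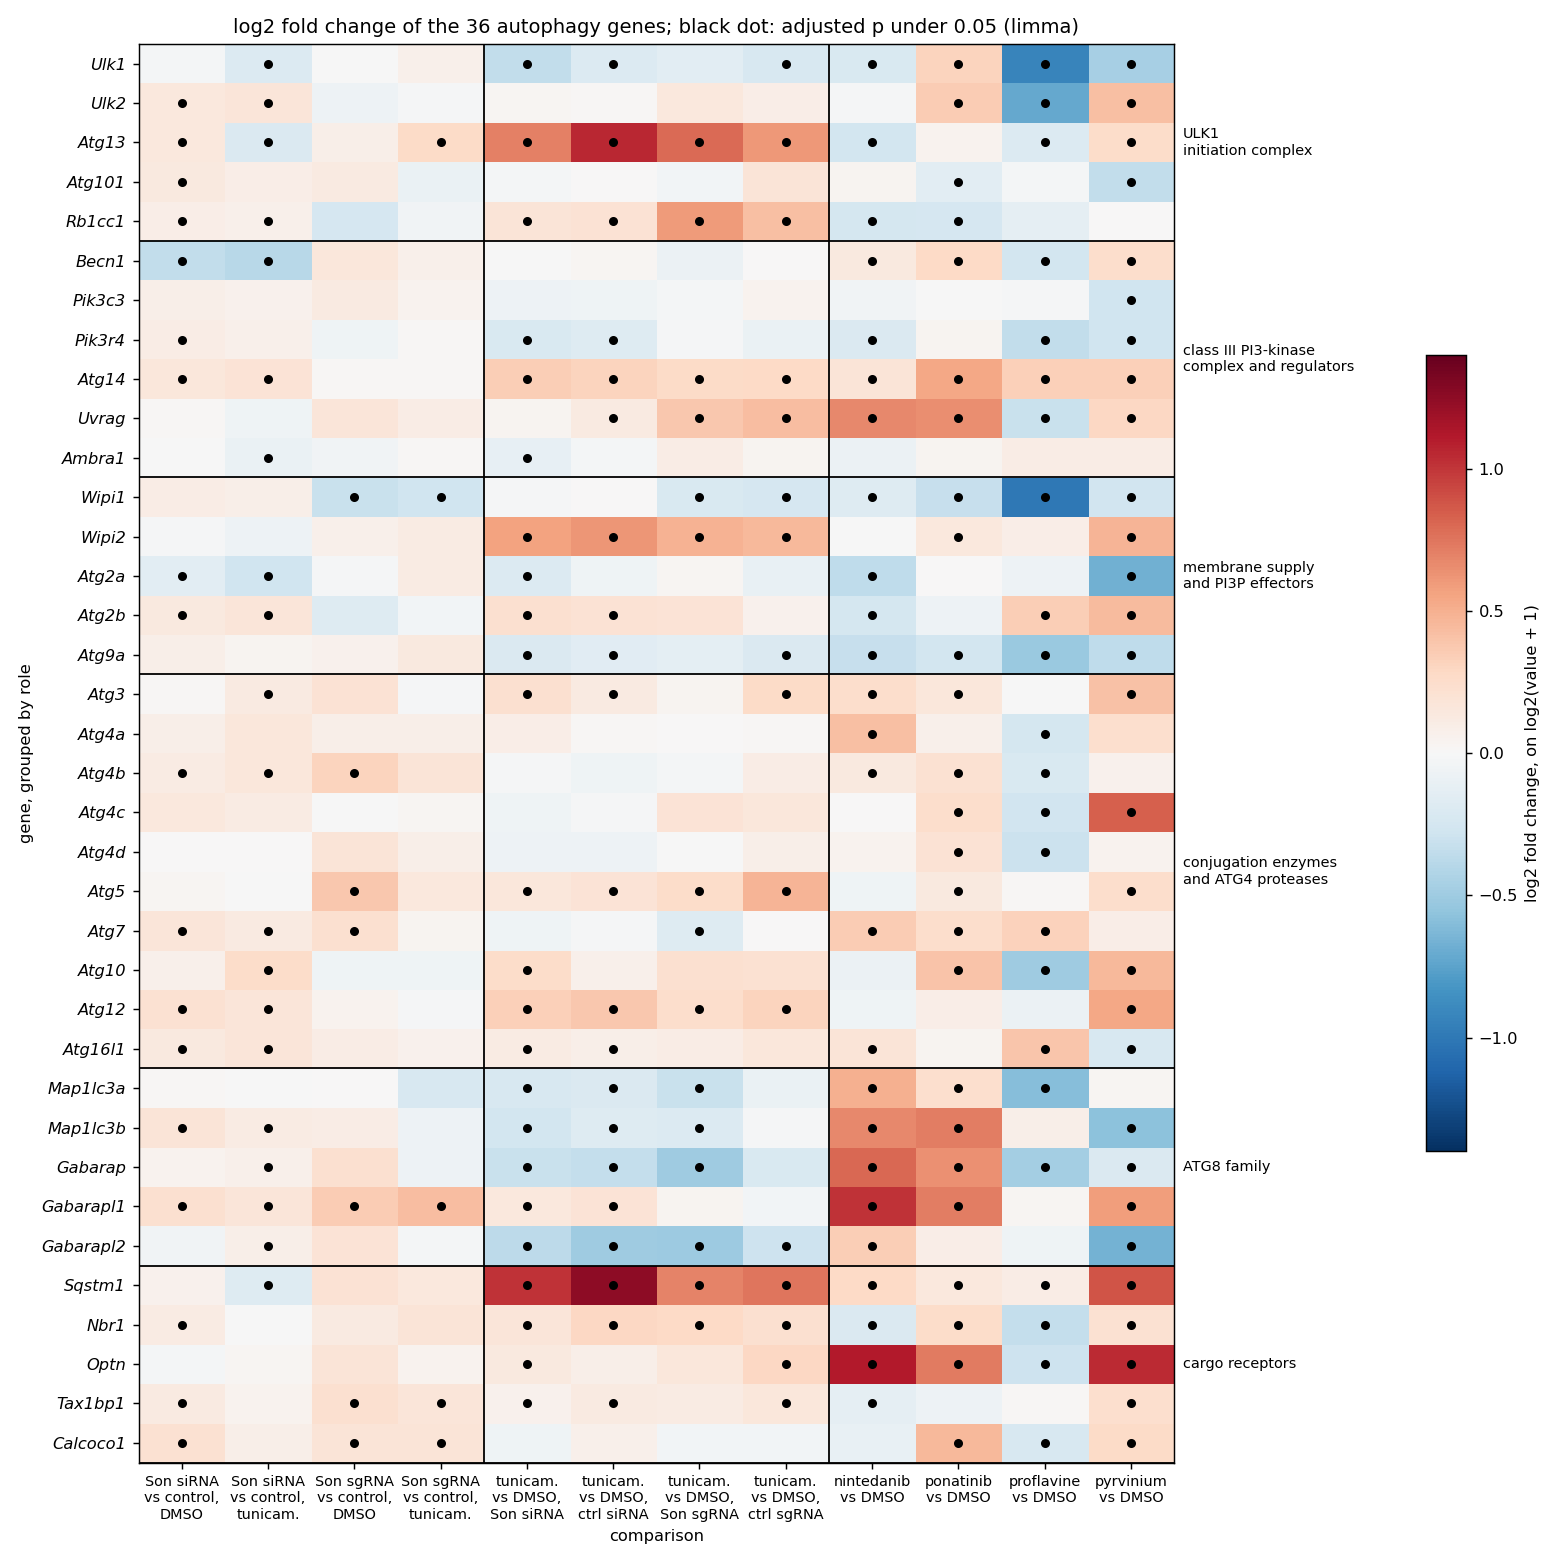
Log2 fold change, on log2(value + 1), of the 36 genes (rows, grouped by role) in 12 comparisons (columns); red is higher and blue lower in the group named before "vs", and a black dot marks an adjusted p under 0.05 in limma. The red rows of Sqstm1, Atg13 and Wipi2 stand out in the tunicamycin columns, the blue row of Becn1 in the Son siRNA columns, and the ATG8 block is red for nintedanib and ponatinib.

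Son siRNA lowered Becn1 and Atg2a and raised a wider set of members by small amounts. In DMSO 16 members were raised and 2 lowered, so that 18 of the 36 were called, 50%, where 36% of all 10883 genes tested were called. Raised members made up 44.4% of the 36 and raised genes 20% of all genes, and lowered members made up 5.56% where 16.1% of all genes were lowered. The median log2 fold change was 0.086 over the members and 0.025 over all genes. In tunicamycin 20 members were called, 55.6% where 51% of all genes were, with 14 raised (38.9% of members and 30.6% of all genes) and 6 lowered (16.7% of members and 20.4% of all genes).

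Becn1 (chr11:101285952-101302286 of GRCm38, minus strand), which encodes the subunit through which the lipid kinase complex is regulated, had 37.4, 38.1, 38.7 and 37.9 FPKM with Son siRNA in DMSO, against 49.6, 46.9, 48.7 and 48.9 FPKM with control siRNA. In tunicamycin it had 37.6, 37.6, 37.5 and 38.4 FPKM with Son siRNA, against 49.2, 49.1, 49.1 and 50.95 FPKM with control siRNA. The groups did not overlap in either condition, and the level with Son siRNA was 0.783 times that of the control in DMSO (log2 fold change -0.34 ± 0.024, adjusted p = 2.36e-08) and 0.762 times in tunicamycin (log2 fold change -0.38 ± 0.024, adjusted p = 2.82e-09). No other member fell by as much under Son siRNA, and tunicamycin itself gave no call for Becn1.

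Atg2a (chr19:6241668-6262335, plus strand), the lipid transfer protein, had 8.03, 7.74, 7.92 and 7.51 FPKM with Son siRNA in DMSO, against 8.53, 8.81, 8.66 and 9.10 FPKM with control siRNA (log2 fold change -0.15 ± 0.041, adjusted p = 0.00874). In tunicamycin Atg2a had 6.71, 6.98, 7.19 and 6.07 FPKM with Son siRNA, against 8.12, 8.47, 8.67 and 8.18 FPKM (log2 fold change -0.28 ± 0.041, adjusted p = 3.67e-05). All 8 Son siRNA libraries lay below all 8 control libraries. Its paralog Atg2b moved the other way, and was raised by 0.14 ± 0.033 in DMSO and by 0.17 ± 0.033 in tunicamycin. Atg2b and Atg2a are separate loci, and the sources used here do not say how reads shared by paralogs were assigned.

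Among the raised genes the largest change in DMSO was that of Gabarapl1 (chr6:129533160-129542346, plus strand), the ATG8 protein, with 44.1, 42.95, 41.96 and 42.5 FPKM with Son siRNA against 37.9, 35.4, 36.3 and 36.7 FPKM with control siRNA (log2 fold change 0.22 ± 0.03, adjusted p = 2.59e-05). In tunicamycin it had 48.5, 46.04, 47.5 and 47.9 FPKM with Son siRNA, against 42.5, 41.4, 40.3 and 43.95 FPKM (log2 fold change 0.17 ± 0.03, adjusted p = 0.000173). Atg12, the ubiquitin-like protein of the conjugation complex, had 19.4, 19.8, 19.9 and 19.6 FPKM with Son siRNA in DMSO, against 16.4, 17.2, 16.9 and 16.5 FPKM (log2 fold change 0.22 ± 0.025, adjusted p = 6.92e-06), and 25.2, 24.4, 25.5 and 24.9 FPKM with Son siRNA in tunicamycin, against 22.7, 21.5, 21.9 and 22.3 FPKM (log2 fold change 0.17 ± 0.025, adjusted p = 4.17e-05). For both genes every Son siRNA library was above every control library of the same treatment. Its partner Atg16l1 had 12.9, 14.4, 13.9 and 14.02 FPKM with Son siRNA in DMSO against 12.2, 12.4, 12.7 and 12.4 FPKM, and 14.96, 14.8, 15.1 and 15.1 FPKM with Son siRNA in tunicamycin against 13.5, 12.9, 13.5 and 12.9 FPKM (log2 fold changes 0.14 ± 0.03 and 0.17 ± 0.03). These groups did not overlap either, although the lowest Son siRNA library in DMSO, A, was close to the highest control.

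Atg14, the autophagy-specific subunit of the lipid kinase complex, had 6.30, 6.40, 6.41 and 6.32 FPKM with Son siRNA in DMSO against 5.10, 5.73, 5.94 and 5.67 FPKM (log2 fold change 0.16 ± 0.041, adjusted p = 0.00723), and 8.48, 8.14, 8.21 and 8.45 FPKM with Son siRNA in tunicamycin against 7.50, 6.89, 7.60 and 6.81 FPKM (log2 fold change 0.19 ± 0.041, adjusted p = 0.00124). Calcoco1, the receptor, had 23.2, 25.2, 25.6 and 23.8 FPKM with Son siRNA in DMSO against 19.5, 20.5, 21.4 and 22.8 FPKM (log2 fold change 0.21 ± 0.046, adjusted p = 0.00233). Neither gene had overlapping groups where it was called. In tunicamycin Calcoco1 had 22.8, 23.6, 23.4 and 23.8 FPKM with Son siRNA and 23.6, 21.01, 22.9 and 20.96 FPKM with control siRNA, and the groups overlapped.

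By role, 4 of the 5 ULK1 complex genes, 4 of the 10 conjugation genes, 2 of the 5 ATG8 genes and 3 of the 5 receptors were raised by Son siRNA in DMSO, and none of these roles had a lowered member. The lipid kinase complex had 2 raised and 1 lowered, and the membrane factors 1 each way. In tunicamycin 6 of the 10 conjugation genes and 4 of the 5 ATG8 genes were raised, 2 of the 5 ULK1 genes each way, and of the receptors only Sqstm1 was called, lower with Son siRNA. Called in both conditions in the same direction were 10 raised members (Ulk2, Rb1cc1, Atg14, Atg2b, Atg4b, Atg7, Atg12, Atg16l1, Map1lc3b and Gabarapl1) and 2 lowered members (Becn1 and Atg2a). The share of all genes called alike in both conditions was not counted, so these counts have no background beside them. The changes were small: apart from Becn1, log2 fold changes lay between -0.15 and 0.22 in DMSO and between -0.28 and 0.26 in tunicamycin. Without control siRNA library A or Son siRNA library C of the DMSO groups, 14 members remained in the count for DMSO, since Atg13, Rb1cc1, Pik3r4 and Atg4b were then not called. The DMSO calls of Atg13 and Atg4b were also lost with no filter on low values and after median-ratio scaling, and the tunicamycin calls of Rb1cc1, Gabarap and Gabarapl2 under both scalings and in a fit of the 2 groups alone. In tunicamycin 14 were called without Son siRNA library A.

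**Figure D2:**
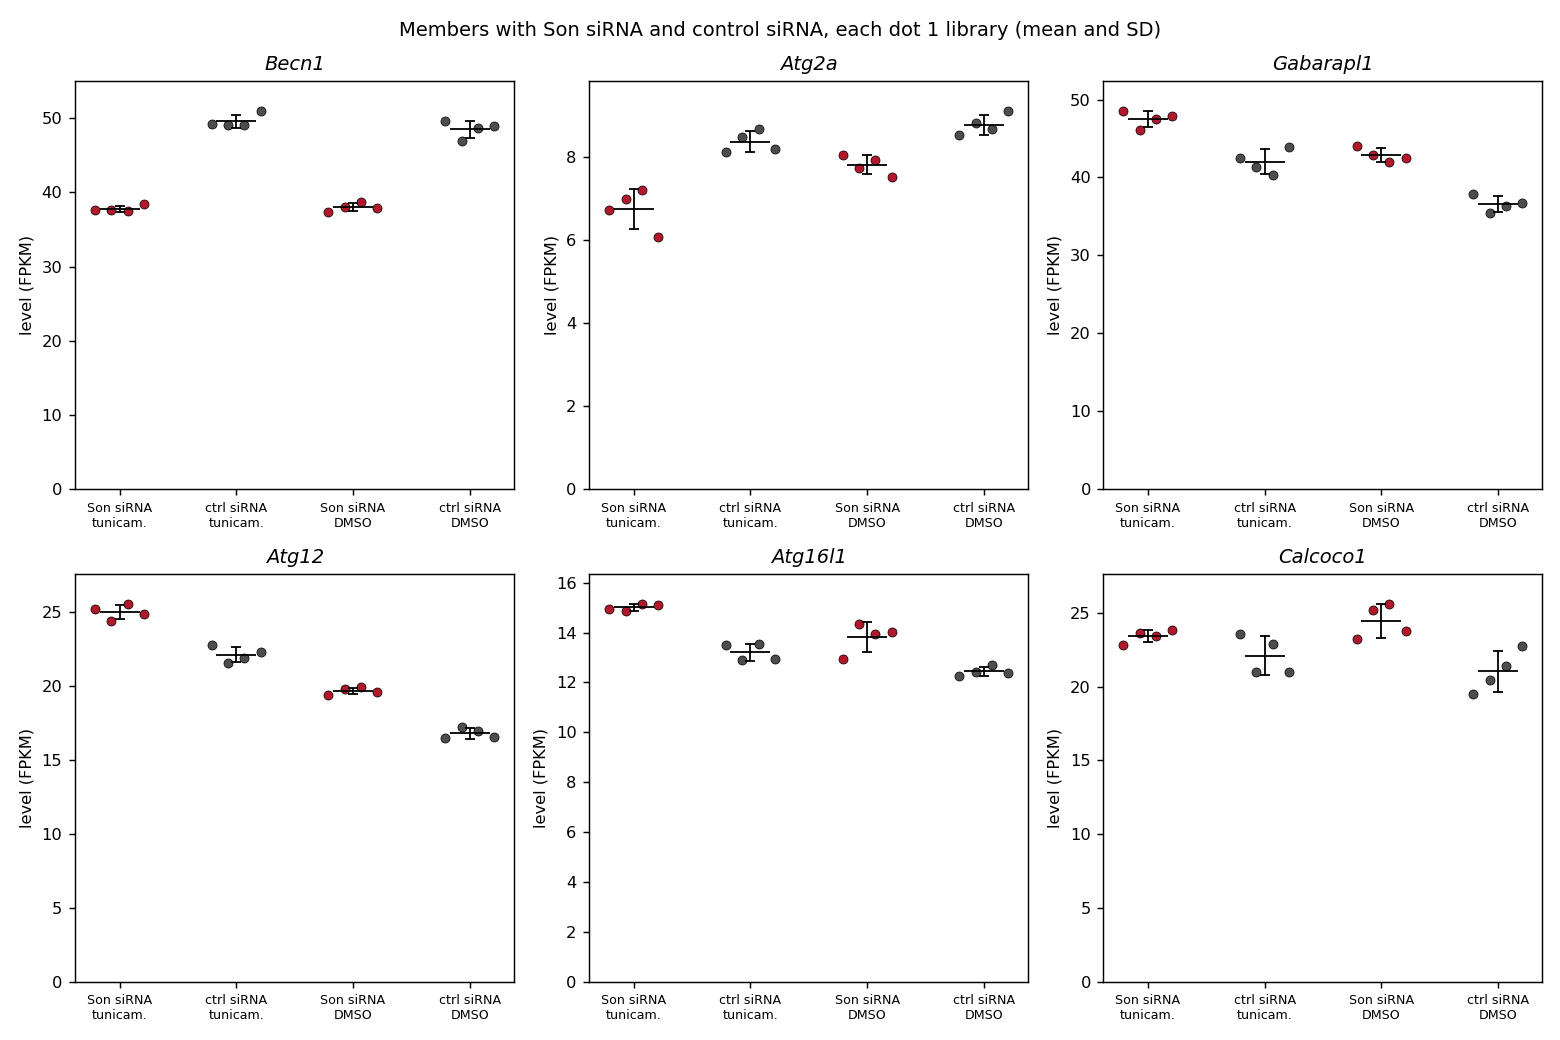
Level in FPKM (vertical axis, from 0) of 6 members in the 4 siRNA groups; each dot is 1 library, and the bar and whiskers are the mean and SD of 4 libraries. Becn1 lay at 37.4 to 38.7 FPKM in the 8 Son siRNA libraries, below the 46.9 to 51.0 FPKM of the 8 control libraries.

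Tunicamycin raised Sqstm1, Atg13 and Wipi2 most and lowered the ATG8 genes other than Gabarapl1. With Son siRNA 24 of the 36 members were called, 66.7% where 67.2% of all genes were called, with 15 raised (41.7% of members and 26.1% of all genes) and 9 lowered (25.0% of members and 41.1% of all genes). With control siRNA 21 were called, 58.3% where 69% of all genes were, with 14 raised (38.9% of members and 26.6% of all genes) and 7 lowered (19.4% of members and 42.4% of all genes). After median-ratio scaling the split with control siRNA was 17 raised and 5 lowered. The share of members called was thus not above that of all genes. The stress marker Ddit3 had 438 FPKM with tunicamycin and Son siRNA against 20.2 FPKM in DMSO, and 543 FPKM with tunicamycin and control siRNA against 19.5 FPKM in DMSO. The summed fibroblast markers moved as well, to 1367 to 1453 FPKM in tunicamycin with Son siRNA against 1895 to 1973 FPKM in DMSO, and to 1141 to 1427 FPKM in tunicamycin with control siRNA against 1995 to 2028 FPKM in DMSO, and their part in the members' values was not tested.

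Sqstm1 (chr11:50199366-50210827, minus strand) had 421, 409.9, 412 and 424 FPKM in tunicamycin with Son siRNA, against 204, 207, 207 and 206 FPKM in DMSO. With control siRNA it had 464, 442, 464 and 529.5 FPKM in tunicamycin, against 196, 196, 198 and 201 FPKM in DMSO. The tunicamycin libraries were at more than the DMSO level in all cases, 2.02 times DMSO with Son siRNA (log2 fold change 1.01 ± 0.039, adjusted p = 9.81e-13) and 2.40 times with control siRNA (log2 fold change 1.25 ± 0.039, adjusted p = 4.37e-14). Within tunicamycin, Sqstm1 was lower with Son siRNA than with control siRNA (log2 fold change -0.18 ± 0.039, adjusted p = 0.000937).

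Atg13 (chr2:91674618-91710576, minus strand), the adaptor of the ULK1 complex, had 25.9, 25.3, 26.7 and 25.4 FPKM in tunicamycin with Son siRNA, against 14.8, 15.6, 16.2 and 15.2 FPKM in DMSO (log2 fold change 0.71 ± 0.05, adjusted p = 3.19e-09). With control siRNA it had 27.8, 28.9, 28.9 and 33.9 FPKM in tunicamycin, against 12.9, 14.04, 14.1 and 14.4 FPKM in DMSO (log2 fold change 1.05 ± 0.05, adjusted p = 1.31e-11), 2.15 times the DMSO level. The groups were far apart in both, and library D was the highest of the control siRNA tunicamycin group for Sqstm1 and for Atg13. The partners of Atg13 did not share the change: Atg101 and Ulk2 gave no call, Rb1cc1 was raised by 0.18 ± 0.03 with Son siRNA and 0.20 ± 0.03 with control siRNA, and Ulk1 was lowered. Ulk1, the kinase, had 8.01, 8.69, 9.20 and 7.61 FPKM in tunicamycin with Son siRNA against 10.6, 11.4, 11.3 and 10.4 FPKM in DMSO (log2 fold change -0.35 ± 0.056, adjusted p = 3.32e-05). With control siRNA it had 9.20, 9.67, 10.2 and 9.66 FPKM in tunicamycin, against 10.1, 11.9, 11.1 and 11.7 FPKM in DMSO (log2 fold change -0.19 ± 0.056, adjusted p = 0.00614), and these groups overlapped.

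Wipi2 (chr5:142627698-142670588, plus strand) had 42.7, 40.9, 41.2 and 43.6 FPKM in tunicamycin with Son siRNA, against 28.5, 28.3, 28.2 and 27.3 FPKM in DMSO (log2 fold change 0.57 ± 0.035, adjusted p = 6.22e-10), and 43.1, 42.3, 43.6 and 48.1 FPKM in tunicamycin with control siRNA, against 28.1, 28.4, 29.1 and 27.9 FPKM in DMSO (log2 fold change 0.62 ± 0.035, adjusted p = 1.24e-10). The tunicamycin libraries all lay above 40 FPKM and the DMSO libraries all below 30 FPKM. Wipi1, the other PI3P binder of the set, gave no call in either siRNA arm and had 13.5, 12.6, 14.5 and 13.1 FPKM in tunicamycin with Son siRNA, against 13.3, 13.2, 14.3 and 13.3 FPKM in DMSO.

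The ATG8 genes went mostly down. Gabarapl2 (chr8:111940703-111953612, plus strand) had 52.4, 50.6, 49.9 and 50.9 FPKM in tunicamycin with Son siRNA, against 63.8, 66.02, 68.2 and 66.2 FPKM in DMSO (log2 fold change -0.37 ± 0.028, adjusted p = 8.05e-09), and 48.6, 48.4, 49.2 and 45.5 FPKM in tunicamycin with control siRNA, against 69.1, 67.9, 67.5 and 68.3 FPKM in DMSO (log2 fold change -0.50 ± 0.028, adjusted p = 1.09e-10). Gabarap had 168, 166, 169 and 162 FPKM in tunicamycin with Son siRNA, against 205, 208, 208 and 201 FPKM in DMSO (log2 fold change -0.31 ± 0.024, adjusted p = 1.02e-08), and 160.2, 159, 159 and 154 FPKM in tunicamycin with control siRNA, against 196, 196, 199 and 206 FPKM in DMSO (log2 fold change -0.33 ± 0.024, adjusted p = 2.72e-09). For both, no tunicamycin library reached a DMSO library. Map1lc3a had 45.8, 45.1, 46.01 and 40.00 FPKM in tunicamycin with Son siRNA, against 51.5, 54.6, 51.1 and 50.3 FPKM in DMSO, and 42.1, 44.3, 45.7 and 45.6 FPKM in tunicamycin with control siRNA, against 46.2, 58.9, 45.99 and 55.7 FPKM in DMSO (log2 fold changes -0.23 ± 0.068 and -0.21 ± 0.068). Its 2 calls were lost once the trend with transcript length was removed, and that with control siRNA was also lost after median-ratio scaling and without control siRNA DMSO library B. Map1lc3b was lowered by -0.25 ± 0.036 with Son siRNA and -0.18 ± 0.036 with control siRNA, whereas Gabarapl1 was raised by 0.14 ± 0.03 and 0.20 ± 0.03. The GABARAP and LC3 genes thus did not move as 1 block.

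Of the conjugation genes, 5 of 10 were raised with Son siRNA and 4 of 10 with control siRNA, and none was lowered. Atg12 changed most among those called in both arms, by 0.33 ± 0.025 with Son siRNA and 0.38 ± 0.025 with control siRNA, and Atg5, Atg3 and Atg16l1 were also raised in both. The call of Atg16l1 with control siRNA (0.08 ± 0.03) was lost without library A or C of the control siRNA tunicamycin group or A or D of its DMSO group. None of the 4 ATG4 protease genes was called in either arm. In the lipid kinase complex Atg14 was raised by 0.34 ± 0.041 and 0.31 ± 0.041 and Pik3r4 lowered by -0.22 ± 0.034 and -0.18 ± 0.034. Among receptors other than Sqstm1, Nbr1 was raised by 0.16 ± 0.031 with Son siRNA and 0.29 ± 0.031 with control siRNA, and Calcoco1 gave no call.

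The tunicamycin response itself was compared between the arms. Of all genes 1.68% were called in this difference of responses, with 0.827% larger and 0.855% smaller with Son siRNA, and of the 36 members 2 were called, both smaller: Atg13 (difference of log2 fold changes -0.34 ± 0.071, adjusted p = 0.0295) and Sqstm1 (-0.24 ± 0.056, adjusted p = 0.0384). With no filter on low values neither was called (adjusted p = 0.0625 and 0.0775). Both calls depended on single libraries. No member was called without control siRNA DMSO library A or C, without Son siRNA DMSO library B, C or D, or without Son siRNA tunicamycin library A, B or D. Only 1 was called without control siRNA DMSO library D, control siRNA tunicamycin library C, Son siRNA DMSO library A or Son siRNA tunicamycin library C. The size of the differences held in these runs, from -0.35 to -0.31 for Atg13 and from -0.25 to -0.23 for Sqstm1 in those that lost the call.

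The promoters of Sqstm1, Atg13, Wipi2 and Atg14 are shown. All are among 8 members raised in all 4 tunicamycin comparisons, of which Sqstm1, Atg13 and Wipi2 led in the siRNA system and Atg14 held a match to a searched motif; these 4 were chosen after their values were seen. They run from 250 bases before to 50 after the annotated start, 5′ to 3′ on the gene's strand, from RefSeq on GRCm38.p6: Sqstm1 chr11:50210771-50211070 (minus), Atg13 chr2:91710543-91710842 (minus), Wipi2 chr5:142629334-142629633 (plus) and Atg14 chr14:47568385-47568684 (minus). Capitals mark a match to a searched motif.
Sqstm1: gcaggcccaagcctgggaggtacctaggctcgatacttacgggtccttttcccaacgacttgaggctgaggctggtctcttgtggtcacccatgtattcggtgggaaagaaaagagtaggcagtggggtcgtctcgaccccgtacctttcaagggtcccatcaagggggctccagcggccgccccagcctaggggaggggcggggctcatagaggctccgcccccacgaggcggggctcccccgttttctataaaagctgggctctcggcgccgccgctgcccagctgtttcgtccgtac
Atg13: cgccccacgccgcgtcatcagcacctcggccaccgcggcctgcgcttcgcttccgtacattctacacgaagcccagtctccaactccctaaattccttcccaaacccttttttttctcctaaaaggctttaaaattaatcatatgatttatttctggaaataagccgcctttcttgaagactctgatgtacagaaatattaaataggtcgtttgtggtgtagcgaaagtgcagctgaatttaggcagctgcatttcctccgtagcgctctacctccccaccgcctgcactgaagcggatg
Wipi2: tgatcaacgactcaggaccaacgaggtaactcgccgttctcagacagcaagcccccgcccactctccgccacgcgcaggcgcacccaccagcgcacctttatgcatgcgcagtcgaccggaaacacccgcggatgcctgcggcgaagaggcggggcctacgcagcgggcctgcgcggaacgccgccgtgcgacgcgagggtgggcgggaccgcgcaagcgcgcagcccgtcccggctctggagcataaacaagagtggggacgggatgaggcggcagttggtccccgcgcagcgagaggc
Atg14: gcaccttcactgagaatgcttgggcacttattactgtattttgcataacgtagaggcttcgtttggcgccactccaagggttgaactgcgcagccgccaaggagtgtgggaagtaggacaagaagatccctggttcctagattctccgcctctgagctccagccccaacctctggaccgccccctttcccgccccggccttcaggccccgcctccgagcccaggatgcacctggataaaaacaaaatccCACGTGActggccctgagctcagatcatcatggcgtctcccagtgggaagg
The searched motifs, on both strands, were the ATF4 element TGATGNAAN, its core TGATGCAA, the CLEAR core TCACGTG bound by Tfeb and its relatives, and the ER stress element ERSE. The core lies within the element, so that these 2 searches overlap. Of the 36 members, 30 had a promoter in the table, with 34 promoters among them. None of them held the ATF4 element, which 3.95% of all 32851 promoters held, its core (0.895%) or ERSE (0.119%). The CLEAR core was in a promoter of 3 of the 30 members, Atg14, Atg3 and Atg7, and in 3.77% of all promoters. The first count is of genes, some with more than 1 promoter, and the second is of promoters, so that they are unlike measures. The Atg7 promoter with the match, chr6:114670846-114671145 (plus), lies inside the gene, whose start in GENCODE is at 114643097. The printed windows of Wipi2 and Atg14 also lie inside their genes, which start in GENCODE at 142627698 (plus) and 47570649 (minus). In Atg14 the CLEAR core stands on the minus strand of the window, as the capitals CACGTGA around the RefSeq start used for that window.

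**Figure D3:**
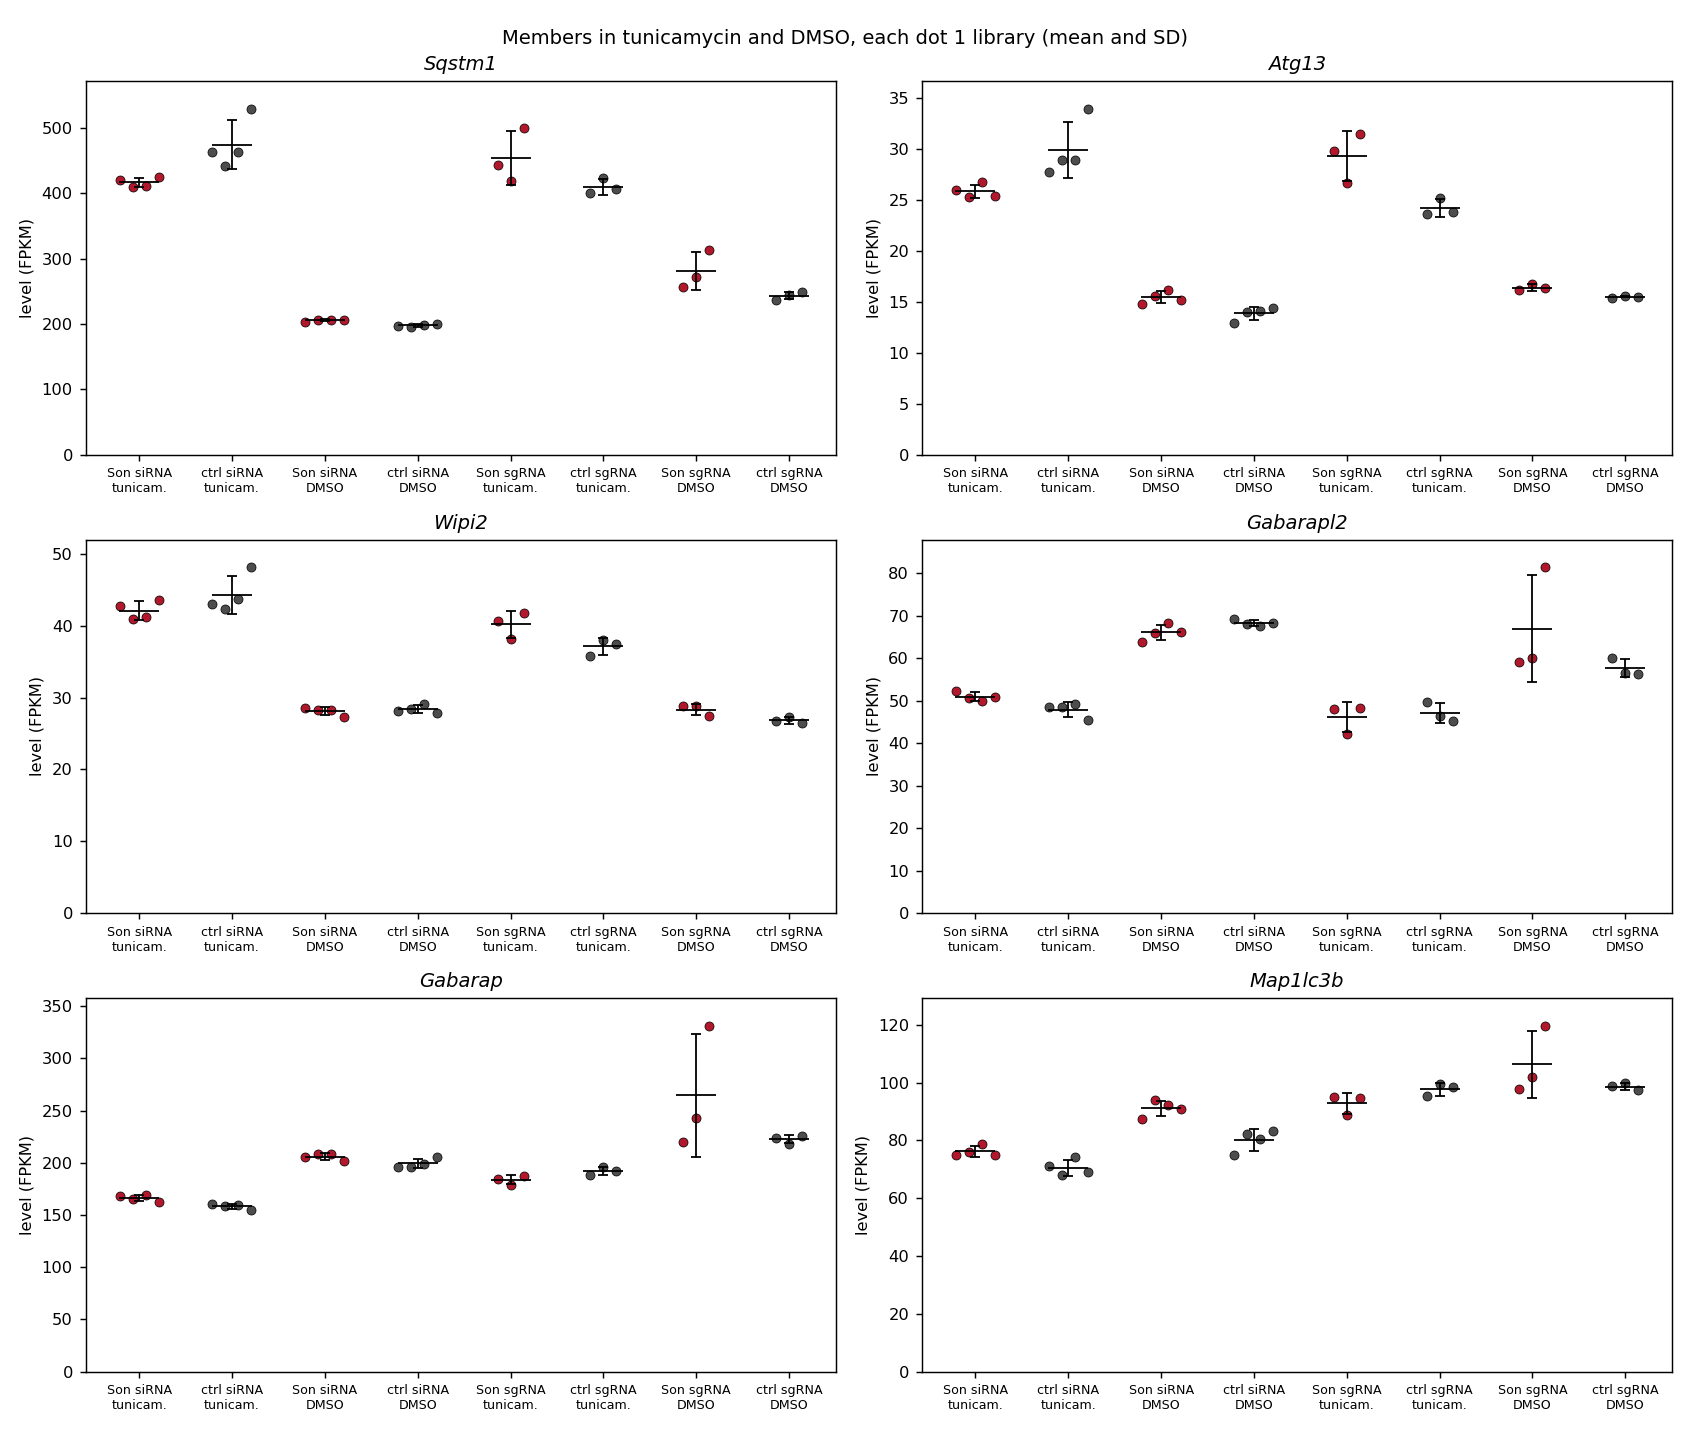
Level in FPKM (vertical axis, from 0) of 6 members in the 4 siRNA groups and the 4 CRISPRa groups; each dot is 1 library, and the bar and whiskers are the mean and SD of 3 or 4 libraries. Sqstm1 lay at 400.4 to 529.5 FPKM in all tunicamycin libraries and at 196 to 313 FPKM in all DMSO libraries, while Gabarapl2 was lower in tunicamycin in every arm.

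In the CRISPRa system fewer members were called with the guide than with Son siRNA, in groups of 3 libraries rather than 4. In simulated data a log2 change of 0.5 was recovered for 73.7% of changed genes here and 97% in the siRNA system. The median log2 fold change over the members was 0.105 in DMSO and 0.049 in tunicamycin, against 0.086 and 0.072 with Son siRNA. Over all genes this median was 0.047 and -0.02, against 0.025 and 0.039 with Son siRNA. These medians are signed and do not measure the size of changes, and whether the changes were smaller was not tested. In DMSO 7 of the 36 were called between the libraries labelled Son sgRNA and control sgRNA, 19.4% where 14.4% of all 11218 genes tested were called. Raised members numbered 6 (16.7% of members and 9.11% of all genes) and Wipi1 alone was lowered (2.78% of members and 5.29% of all genes). In tunicamycin 5 were called, 13.9% where 9.45% of all genes were, with 4 raised (11.1% of members and 2.59% of all genes) and 1 lowered (2.78% of members and 6.86% of all genes). With the trend over transcript length removed, 6 were raised and 2 lowered in DMSO, and 9 raised and 2 lowered in tunicamycin. After median-ratio scaling 7 were raised and 1 lowered in tunicamycin. Called in both conditions were Gabarapl1, Tax1bp1 and Calcoco1, higher, and Wipi1, lower. The tunicamycin call of Tax1bp1 (0.17 ± 0.047) was lost in 9 of the 12 runs without 1 library, all except those without Son sgRNA library A or C of the DMSO group or B of the tunicamycin group, and with the replicate block.

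Gabarapl1 had 49.3, 48.7 and 60.97 FPKM in DMSO in the libraries labelled Son sgRNA, against 41.2, 40.8 and 40.7 FPKM with control sgRNA (log2 fold change 0.36 ± 0.088, adjusted p = 0.0195). In tunicamycin it had 54.1, 49.2 and 59.2 FPKM in those labelled Son sgRNA, against 37.4, 40.5 and 41.8 FPKM (log2 fold change 0.43 ± 0.088, adjusted p = 0.00903). The groups did not overlap in either condition, library C was the highest of the Son sgRNA group in DMSO, and without it the DMSO call was kept. The DMSO call was lost without any 1 of the control sgRNA DMSO libraries (adjusted p = 0.0599 to 0.0695) and in a fit of the 2 groups alone, and the tunicamycin call without control sgRNA tunicamycin library A (adjusted p = 0.0508).

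Wipi1, the PI3P binder, had 23.4, 21.7 and 23.6 FPKM in DMSO in the libraries labelled Son sgRNA, against 27.8, 30.01 and 27.9 FPKM with control sgRNA (log2 fold change -0.31 ± 0.063, adjusted p = 0.00804). In tunicamycin it had 21.1, 20.01 and 17.8 FPKM in those labelled Son sgRNA, against 24.5, 23.8 and 23.8 FPKM (log2 fold change -0.28 ± 0.063, adjusted p = 0.0137). All Son sgRNA libraries were below all control libraries of the same treatment. The tunicamycin call was lost without control sgRNA tunicamycin library A or Son sgRNA tunicamycin library C (log2 fold changes -0.27 and -0.22).

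Atg5, of the conjugation complex, had 14.3, 15.4 and 16.7 FPKM in DMSO in the libraries labelled Son sgRNA, against 11.2, 11.5 and 12.4 FPKM (log2 fold change 0.37 ± 0.069, adjusted p = 0.00503), and the protease gene Atg4b 17.1, 17.6 and 18.7 FPKM against 13.7, 14.7 and 14.04 FPKM (log2 fold change 0.31 ± 0.058, adjusted p = 0.00475). Neither pair of groups overlapped. In tunicamycin neither was called, with 19.4, 16.9 and 19.5 FPKM of Atg5 in the libraries labelled Son sgRNA and 17.2, 16.5 and 16.4 FPKM with control sgRNA. Atg13 was called in tunicamycin, with 29.8, 26.6 and 31.5 FPKM in the libraries labelled Son sgRNA against 23.6, 25.2 and 23.8 FPKM (log2 fold change 0.26 ± 0.059, adjusted p = 0.0144), and Calcoco1 had 33.8, 30.5 and 33.7 FPKM against 28.2, 28.5 and 29.2 FPKM (log2 fold change 0.18 ± 0.051, adjusted p = 0.0483). The groups of both were apart, but the Atg13 call was lost without control sgRNA library A or C or Son sgRNA library A or C of the tunicamycin groups. That of Calcoco1 was lost in 10 of the 12 runs without 1 library, all except those without Son sgRNA DMSO library C or Son sgRNA tunicamycin library B. It was also lost with a pseudocount of 0.1, in a fit of the 2 groups alone and with the replicate block. The DMSO call of Calcoco1 (0.18 ± 0.051) was lost in that fit, with the block and with the length trend removed.

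Library C of the Son sgRNA group in DMSO was the highest of its group for Gabarap, with 219.7, 243 and 331 FPKM for A, B and C in turn, and the lowest for Rb1cc1, with 12.2, 11.8 and 7.36 FPKM. Without it, 8 members were called between Son sgRNA and control sgRNA in DMSO (7 raised and 1 lowered) and also 8 in tunicamycin (6 raised and 2 lowered), although that library is in neither tunicamycin group and enters only the shared estimate of the spread. The tunicamycin count was 0 without control sgRNA tunicamycin library A, 1 without Son sgRNA tunicamycin library C, 2 without control sgRNA library C or Son sgRNA library A of the tunicamycin groups, and 3 without control sgRNA tunicamycin library B, Son sgRNA DMSO library B or any 1 control sgRNA DMSO library. The DMSO count was 4 without any 1 of the control sgRNA DMSO libraries.

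**Figure D4:**
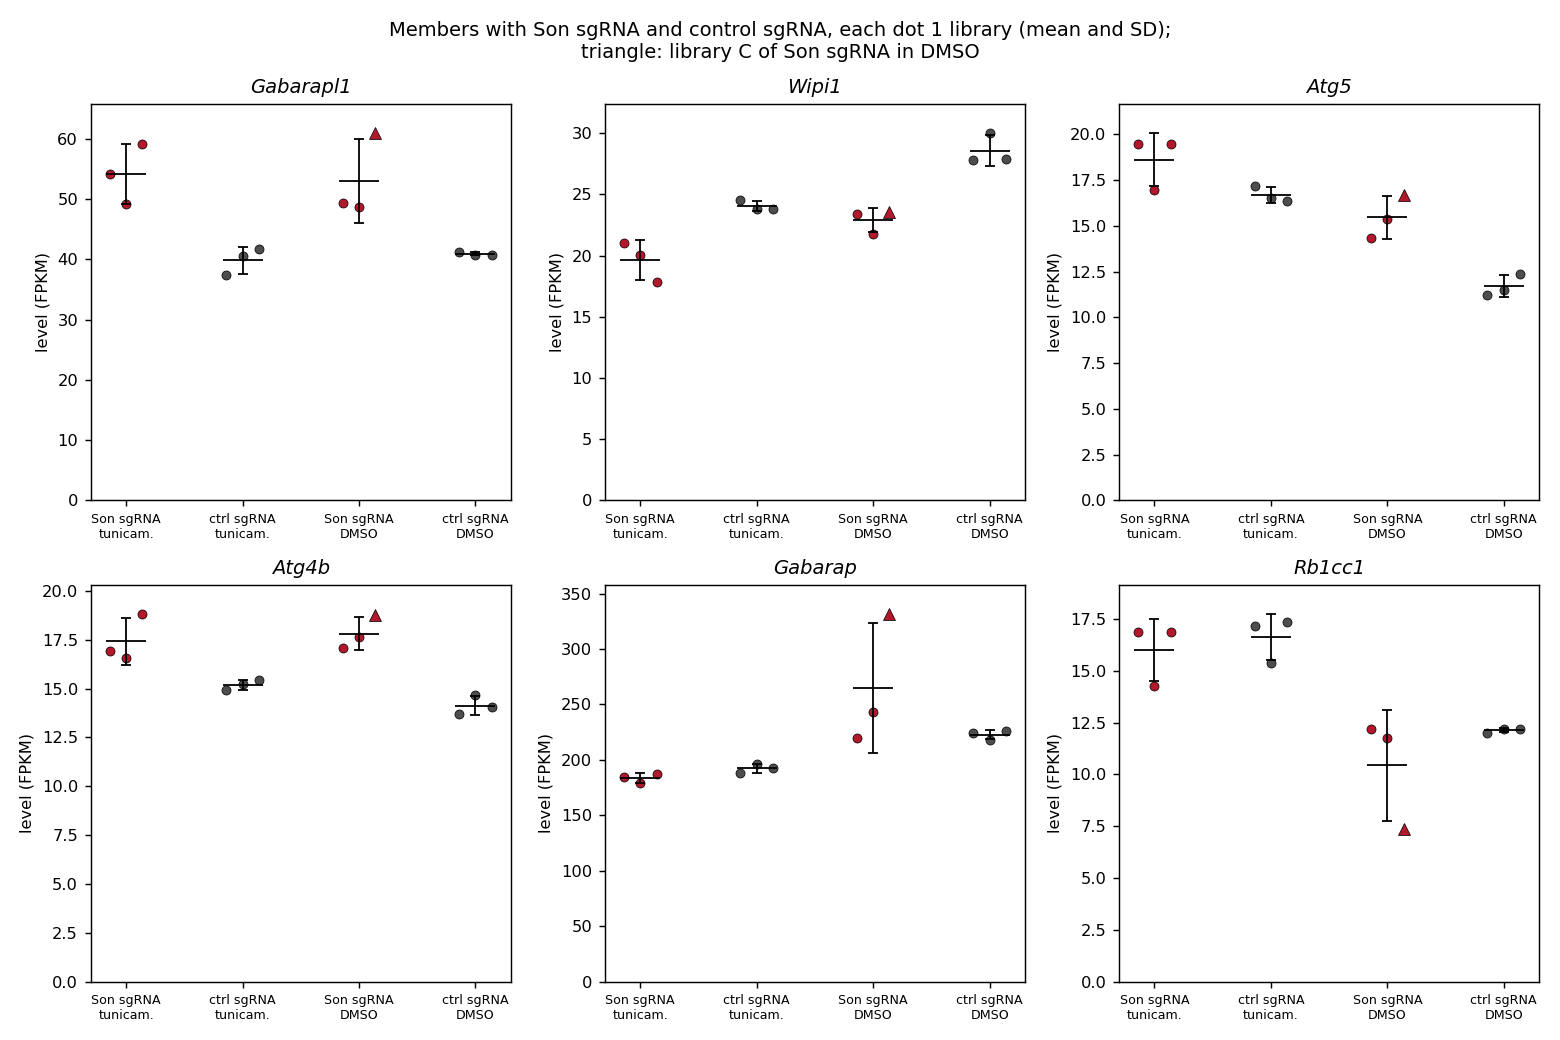
Level in FPKM (vertical axis, from 0) of 6 members in the 4 CRISPRa groups; each symbol is 1 library, the triangle is library C of Son sgRNA in DMSO, and the bar and whiskers are the mean and SD of 3 libraries. Gabarapl1 lay at 48.7 to 61.0 FPKM in the 6 libraries labelled Son sgRNA and at 37.4 to 41.8 FPKM in the 6 control libraries, and the triangle is apart from its group for Gabarap and Rb1cc1.

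Tunicamycin in the CRISPRa system raised Sqstm1 and Atg13, and after them Rb1cc1 and Wipi2 in the libraries labelled Son sgRNA and Atg5 and Wipi2 with control sgRNA. In the libraries labelled Son sgRNA 15 members were called, 41.7% where 49.4% of all genes were, with 9 raised (25.0% of members and 22.7% of all genes) and 6 lowered (16.7% of members and 26.6% of all genes). With control sgRNA 16 were called, 44.4% where 38.3% of all genes were, with 12 raised (33.3% of members and 24.2% of all genes) and 4 lowered (11.1% of members and 14.1% of all genes). In the libraries labelled Son sgRNA the split was 15 raised and 7 lowered once the trend over length was removed, 12 and 6 after median-ratio scaling, and 14 and 4 without Son sgRNA tunicamycin library B. With control sgRNA it was 8 raised and 5 lowered after median-ratio scaling and 12 raised and 8 lowered with the length trend removed. The count of 16 was 9 without control sgRNA DMSO library B or control sgRNA tunicamycin library A, and 10 without control sgRNA DMSO library A or C or control sgRNA tunicamycin library C. The summed fibroblast markers were 841 to 947 FPKM in tunicamycin against 1322 to 1440 FPKM in DMSO in the libraries labelled Son sgRNA, and 1054 to 1107 FPKM in tunicamycin against 1422 to 1540 FPKM in DMSO with control sgRNA, and their part in these values was not tested.

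Sqstm1 had 443, 419 and 500.5 FPKM in tunicamycin in the libraries labelled Son sgRNA, against 257, 271 and 313 FPKM in DMSO (log2 fold change 0.69 ± 0.086, adjusted p = 5.49e-05), and 400.4, 423 and 406 FPKM in tunicamycin with control sgRNA, against 238, 244 and 249 FPKM in DMSO (log2 fold change 0.75 ± 0.086, adjusted p = 4.6e-05). Atg13 had 16.1, 16.7 and 16.3 FPKM in DMSO in the libraries labelled Son sgRNA and 15.4, 15.5 and 15.5 FPKM in DMSO with control sgRNA, and was raised in tunicamycin by 0.80 ± 0.059 (adjusted p = 9.84e-07) in the libraries labelled Son sgRNA and by 0.61 ± 0.059 (adjusted p = 1.2e-05) with control sgRNA. Neither gene had overlapping groups. Rb1cc1, the scaffold, had 16.9, 14.3 and 16.9 FPKM in tunicamycin in the libraries labelled Son sgRNA, against the DMSO values given above (log2 fold change 0.60 ± 0.14, adjusted p = 0.00437); library C in DMSO was the lowest, and without it the call was kept at a log2 fold change of 0.39. With control sgRNA, Rb1cc1 was raised by 0.42 ± 0.14, a call lost with no filter on low values, after median-ratio scaling and without any 1 control sgRNA DMSO library or control sgRNA tunicamycin library A or C. Wipi2 was raised by 0.49 ± 0.049 in the libraries labelled Son sgRNA and by 0.45 ± 0.049 with control sgRNA. Atg5 was raised by 0.25 ± 0.069 in the libraries labelled Son sgRNA, a call lost in a fit of the 2 groups alone, and by 0.48 ± 0.069 with control sgRNA.

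Gabarapl2 had 47.95, 42.1 and 48.3 FPKM in tunicamycin in the libraries labelled Son sgRNA, against 59.1, 60.1 and 81.4 FPKM in DMSO (log2 fold change -0.51 ± 0.10, adjusted p = 0.00187), and 49.7, 46.4 and 45.3 FPKM in tunicamycin with control sgRNA, against 60.1, 56.6 and 56.4 FPKM in DMSO (log2 fold change -0.29 ± 0.10, adjusted p = 0.0487). Gabarap had 185, 179 and 187 FPKM in tunicamycin in the libraries labelled Son sgRNA (log2 fold change -0.50 ± 0.11, adjusted p = 0.00365). Without Son sgRNA DMSO library C this was -0.33, and with the length trend removed -0.32, both still called. In the libraries labelled Son sgRNA, Gabarap and Gabarapl2 were lower in every tunicamycin library than in every DMSO library, as was Gabarapl2 with control sgRNA. With control sgRNA Gabarapl2 was the only ATG8 gene called, and the log2 fold changes of the 5 ATG8 genes ran from -0.287 to -0.013. No ATG8 gene was called raised in either CRISPRa arm, unlike Gabarapl1 in the siRNA system. Map1lc3a had 52.2, 50.4 and 48.8 FPKM in tunicamycin in the libraries labelled Son sgRNA, against 56.4, 59.4 and 74.9 FPKM in DMSO (log2 fold change -0.32 ± 0.085, adjusted p = 0.0094); the call was lost with the length trend removed (-0.089) and in a fit of the 2 groups alone, and without Son sgRNA DMSO library C it was kept at -0.195. With control sgRNA the call of Gabarapl2 was lost with no filter on low values, with the replicate block and in 8 of the 12 runs without 1 library (all except those without Son sgRNA library A, B or C of the DMSO group or B of the tunicamycin group), and Ulk1 and Wipi1 were lowered by -0.22 ± 0.073 and -0.24 ± 0.063. Ulk1 had 10.8, 10.7 and 10.9 FPKM in tunicamycin with control sgRNA, against 12.9, 12.8 and 12.6 FPKM in DMSO, and its call was lost without any 1 library of these groups. The call of Wipi1 was lost without control sgRNA DMSO library B.

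The difference of tunicamycin responses between the Son sgRNA and control sgRNA arms gave no call in limma for any member or for any gene (0%), with 2 members at an unadjusted p under 0.05, Atg13 (0.19 ± 0.083) and Atg5 (-0.23 ± 0.098), both with an adjusted p of 0.6. Over the 4 tunicamycin comparisons of both systems, 8 members were raised in each (Atg13, Rb1cc1, Atg14, Wipi2, Atg5, Atg12, Sqstm1 and Nbr1), Gabarapl2 was lowered in each, and 9 were called in none (Ulk2, Atg101, Becn1, Pik3c3, the 4 ATG4 genes and Calcoco1). In the single comparisons 22.7% to 26.6% of all genes were raised and 14.1% to 42.4% lowered. The share of all genes called alike in all 4 was not counted, so these counts have no background beside them.

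Between 23 and 29 of the members were called with each drug. With nintedanib 25 of the 36 were called, 69.4% where 56.4% of all 12132 genes tested were called, with 15 raised (41.7% of members and 34.3% of all genes) and 10 lowered (27.8% of members and 22.1% of all genes). With ponatinib 25 were called, 69.4% where 62.5% of all genes were, with 21 raised (58.3% and 41.1%) and 4 lowered (11.1% and 21.4%). With proflavine 23 were called, 63.9% where 70.1% of all genes were, with 5 raised (13.9% and 27.8%) and 18 lowered (50% and 42.4%). With pyrvinium 29 were called, 80.6% where 77.3% of all genes were, with 18 raised (50% and 36.6%) and 11 lowered (30.6% and 40.8%). The split depended on scaling: after median-ratio scaling nintedanib had 11 raised and 17 lowered, ponatinib 13 and 7, and proflavine 10 and 17, and with the length trend removed nintedanib had 13 and 18, ponatinib 15 and 7, and proflavine 11 and 17. For ponatinib the median of all genes moved from 0.097 as deposited to -0.012 under both.

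Nintedanib raised all 5 ATG8 genes and lowered 4 of the 5 membrane factors. Optn (chr2:5020642-5064051, minus strand) had 60.04, 64.4 and 65.3 TPM with nintedanib, against 26.8, 28.7 and 31.1 TPM in DMSO (log2 fold change 1.11 ± 0.053, adjusted p = 2.05e-10). Gabarapl1 had 152, 160.5 and 162 TPM with nintedanib, against 73.5, 80.5 and 79.9 TPM in DMSO (log2 fold change 1.01 ± 0.043, adjusted p = 5.57e-11), and Gabarap 924, 893 and 895 TPM against 499, 515 and 542 TPM (log2 fold change 0.80 ± 0.031, adjusted p = 2.59e-11). The level of Optn was 2.19 times and that of Gabarapl1 2.03 times the DMSO level, with no overlap of groups. Map1lc3b had 231, 233 and 239.7 TPM with nintedanib against 141, 147 and 152 TPM in DMSO (log2 fold change 0.67 ± 0.04), Map1lc3a 178, 160.4 and 152 TPM against 108, 117 and 121 TPM (0.50 ± 0.061), and Gabarapl2 252, 239.8 and 256 TPM against 196, 191 and 199 TPM (0.35 ± 0.04). Uvrag, of the endosomal lipid kinase complex, was raised by 0.67 ± 0.057, to 52.7 TPM against 32.8 TPM in DMSO.

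On the other side, Atg2a had 17.3, 20.9 and 19.6 TPM with nintedanib, against 24.8, 25.01 and 24.8 TPM in DMSO (log2 fold change -0.36 ± 0.08, adjusted p = 0.0014), Atg9a 35.3, 38.1 and 40.5 TPM against 47.1, 46.2 and 49.5 TPM (log2 fold change -0.32 ± 0.053, adjusted p = 0.000118) and Atg13 25.3, 26.9 and 26.3 TPM against 30.5, 31.97 and 31.7 TPM (log2 fold change -0.25 ± 0.042, adjusted p = 0.000111). None of these groups overlapped. Library 1 of nintedanib was the lowest of its group for each of these 3 genes and for Ulk1 and Rb1cc1, and 21 members were called without it (15 raised and 6 lowered). The calls of Ulk1, Pik3r4, Wipi1 and Tax1bp1 were then lost. Sqstm1 was raised by 0.28 ± 0.03 and Nbr1 lowered by -0.20 ± 0.052.

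Ponatinib raised 4 of the 5 ATG8 genes and 4 of the 5 receptors. Map1lc3b (chr8:121590361-121598760, plus strand) had 239, 248 and 241 TPM with ponatinib, against the DMSO values given above (log2 fold change 0.72 ± 0.04, adjusted p = 1.13e-09), Optn had 48.3, 48.8 and 48.4 TPM (log2 fold change 0.73 ± 0.053, adjusted p = 1.65e-08) and Gabarapl1 had 127, 132 and 127 TPM (log2 fold change 0.72 ± 0.043, adjusted p = 2.04e-09). Every ponatinib library was above every DMSO library for these genes. Gabarap was raised by 0.64 ± 0.031, Map1lc3a by 0.23 ± 0.061, which lost its call under both scalings, and Gabarapl2 was not called, at 206, 211 and 208 TPM. Of the conjugation genes 7 of 10 were raised and none lowered; the calls of Atg3, Atg4d and Atg5 among them were lost under both scalings, and those of Atg4c and Atg7 after median-ratio scaling. Ulk1 was raised by 0.31 ± 0.069, Ulk2 by 0.35 ± 0.076, Atg14 by 0.54 ± 0.053 and Calcoco1 by 0.46 ± 0.051.

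The members lowered by ponatinib were 4. Wipi1 had 28.97, 28.9 and 30.6 TPM with ponatinib, against 38.2, 34.5 and 38.5 TPM in DMSO (log2 fold change -0.32 ± 0.059, adjusted p = 0.000246), Atg9a had 38.96, 39.6 and 40.5 TPM (log2 fold change -0.26 ± 0.053, adjusted p = 0.0007) and Rb1cc1 18.9, 19.4 and 19.7 TPM against 22.8, 22.3 and 23.6 TPM in DMSO (log2 fold change -0.24 ± 0.069, adjusted p = 0.00811). None of these groups overlapped with DMSO. The call of Atg101, the fourth, was lost with no filter on low values, with the replicate block, and without DMSO library 2 or 3 or any 1 ponatinib library.

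Proflavine lowered members of every role, and it was the one drug of the 4 with more members lowered than raised as deposited; under both scalings nintedanib also had more lowered. Wipi1 (chr11:109573331-109611967, minus strand) had 18.1, 17.2 and 18.6 TPM with proflavine, against the DMSO values given above, 0.485 times the DMSO level (log2 fold change -1.004 ± 0.059, adjusted p = 9.81e-10). Ulk1 (chr5:110784488-110810097, minus strand) had 16.9, 17.5 and 15.9 TPM with proflavine, against 31.3, 32.6 and 34.2 TPM in DMSO (log2 fold change -0.92 ± 0.069, adjusted p = 1.37e-08), and Ulk2 10.02, 9.44 and 9.84 TPM against 17.02, 15.8 and 17.3 TPM (log2 fold change -0.72 ± 0.076, adjusted p = 6.73e-07). Both kinases were thus near 0.5 times DMSO, at 0.513 and 0.584, with no overlap. Map1lc3a had 79.7, 77.4 and 70.9 TPM and Gabarap 369, 378 and 372 TPM with proflavine (log2 fold changes -0.60 ± 0.061 and -0.47 ± 0.031), while Map1lc3b, Gabarapl1 and Gabarapl2 were not called, with 155, 79.2 and 187 TPM on average.

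The 5 members raised by proflavine were Atg16l1, Atg2b, Atg14, Atg7 and Sqstm1. Atg16l1 had 25.4, 25.6 and 26.03 TPM with proflavine, against 18.96, 19.3 and 19.97 TPM in DMSO (log2 fold change 0.39 ± 0.059, adjusted p = 2.89e-05), Atg2b 19.1, 18.5 and 18.97 TPM against 14.8, 14.7 and 14.3 TPM (log2 fold change 0.34 ± 0.078, adjusted p = 0.00106) and Atg14 13.8, 12.6 and 13.2 TPM against 10.6, 9.75 and 10.6 TPM (log2 fold change 0.33 ± 0.053, adjusted p = 5.16e-05). All proflavine libraries were above all DMSO libraries in each case. Of the ATG4 genes, Atg4b, Atg4c and Atg4d were lowered, by -0.21 ± 0.054, -0.26 ± 0.076 and -0.30 ± 0.069. The call of Atg4a (-0.24 ± 0.10, with overlapping groups) was lost under both scalings, with no filter on low values, with the replicate block, and without DMSO library 1 or 3, any 1 proflavine library other than 3, or any 1 nintedanib or ponatinib library. The epithelial marker Krt18 had 41.2 TPM with proflavine against 14.1 TPM in DMSO, with Epcam at 0.794 TPM against 0.673 TPM. The summed 4 epithelial markers were 42.7 to 44.4 TPM with proflavine against 14.7 to 15.8 TPM in DMSO, and their part in these results was not tested.

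Pyrvinium raised all 5 receptors and split the ATG8 genes. Optn had 62.5, 59.8 and 58.8 TPM with pyrvinium (log2 fold change 1.04 ± 0.053, adjusted p = 7.83e-11) and Sqstm1 985, 971 and 928 TPM, against 511, 517 and 531 TPM in DMSO (log2 fold change 0.89 ± 0.03, adjusted p = 7.75e-13). The protease gene Atg4c had 14.2, 12.5 and 12.2 TPM with pyrvinium, against 6.77, 6.24 and 7.39 TPM in DMSO (log2 fold change 0.84 ± 0.076, adjusted p = 7.67e-08). For all 3 genes the groups were far apart, with pyrvinium at 2.09, 1.85 and 1.91 times the DMSO level. Gabarapl2 had 129, 123 and 117 TPM with pyrvinium (log2 fold change -0.67 ± 0.04, adjusted p = 6.09e-10) and Map1lc3b 103, 99.3 and 92.1 TPM (log2 fold change -0.58 ± 0.04, adjusted p = 3.83e-09), both below every DMSO library, while Gabarapl1 was raised by 0.58 ± 0.043, to 116, 114 and 121 TPM. Atg2a had 15.1, 16.9 and 13.6 TPM with pyrvinium, 0.613 times the DMSO level (log2 fold change -0.68 ± 0.08, adjusted p = 1.57e-06), and its paralog Atg2b was raised by 0.44 ± 0.078. Atg12 was raised by 0.54 ± 0.041, Wipi2 by 0.47 ± 0.044 and Atg13 by 0.25 ± 0.042. Pyrvinium also gave the highest Ddit3 of the drugs, 779 TPM against 52.3 TPM in DMSO, and the lowest fibroblast markers, given above, whose part in these values was not tested.

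Across the 4 drugs, which share their DMSO libraries, Atg14 and Sqstm1 were raised by each and Wipi1 and Atg9a lowered by each. Under ponatinib Sqstm1 lost its call under both scalings, and under nintedanib Atg14 lost its call after median-ratio scaling and Wipi1 without DMSO library 1 or 3 or nintedanib library 1. Ambra1 was the only member called by none, and 20 members were raised by at least 1 drug and lowered by at least 1 other. With each drug 56.4% to 77.3% of all genes were called. The shares of all genes in these counts over the 4 drugs were not taken, so the counts have no background beside them. Of 5 macrophage markers only Cd68, a lysosomal protein that other cells also make, had a mean of at least 1, and the summed level of the 5 was 13.8 to 15.6 TPM with nintedanib, 14.1 to 16.8 TPM with ponatinib, 9.79 to 10.7 TPM with proflavine, 10.5 to 14.2 TPM with pyrvinium and 5.41 to 6.64 TPM in DMSO. Ptprc was at or near 0 in every group, and the part of Cd68 in the drug results was not tested.

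**Figure D5:**
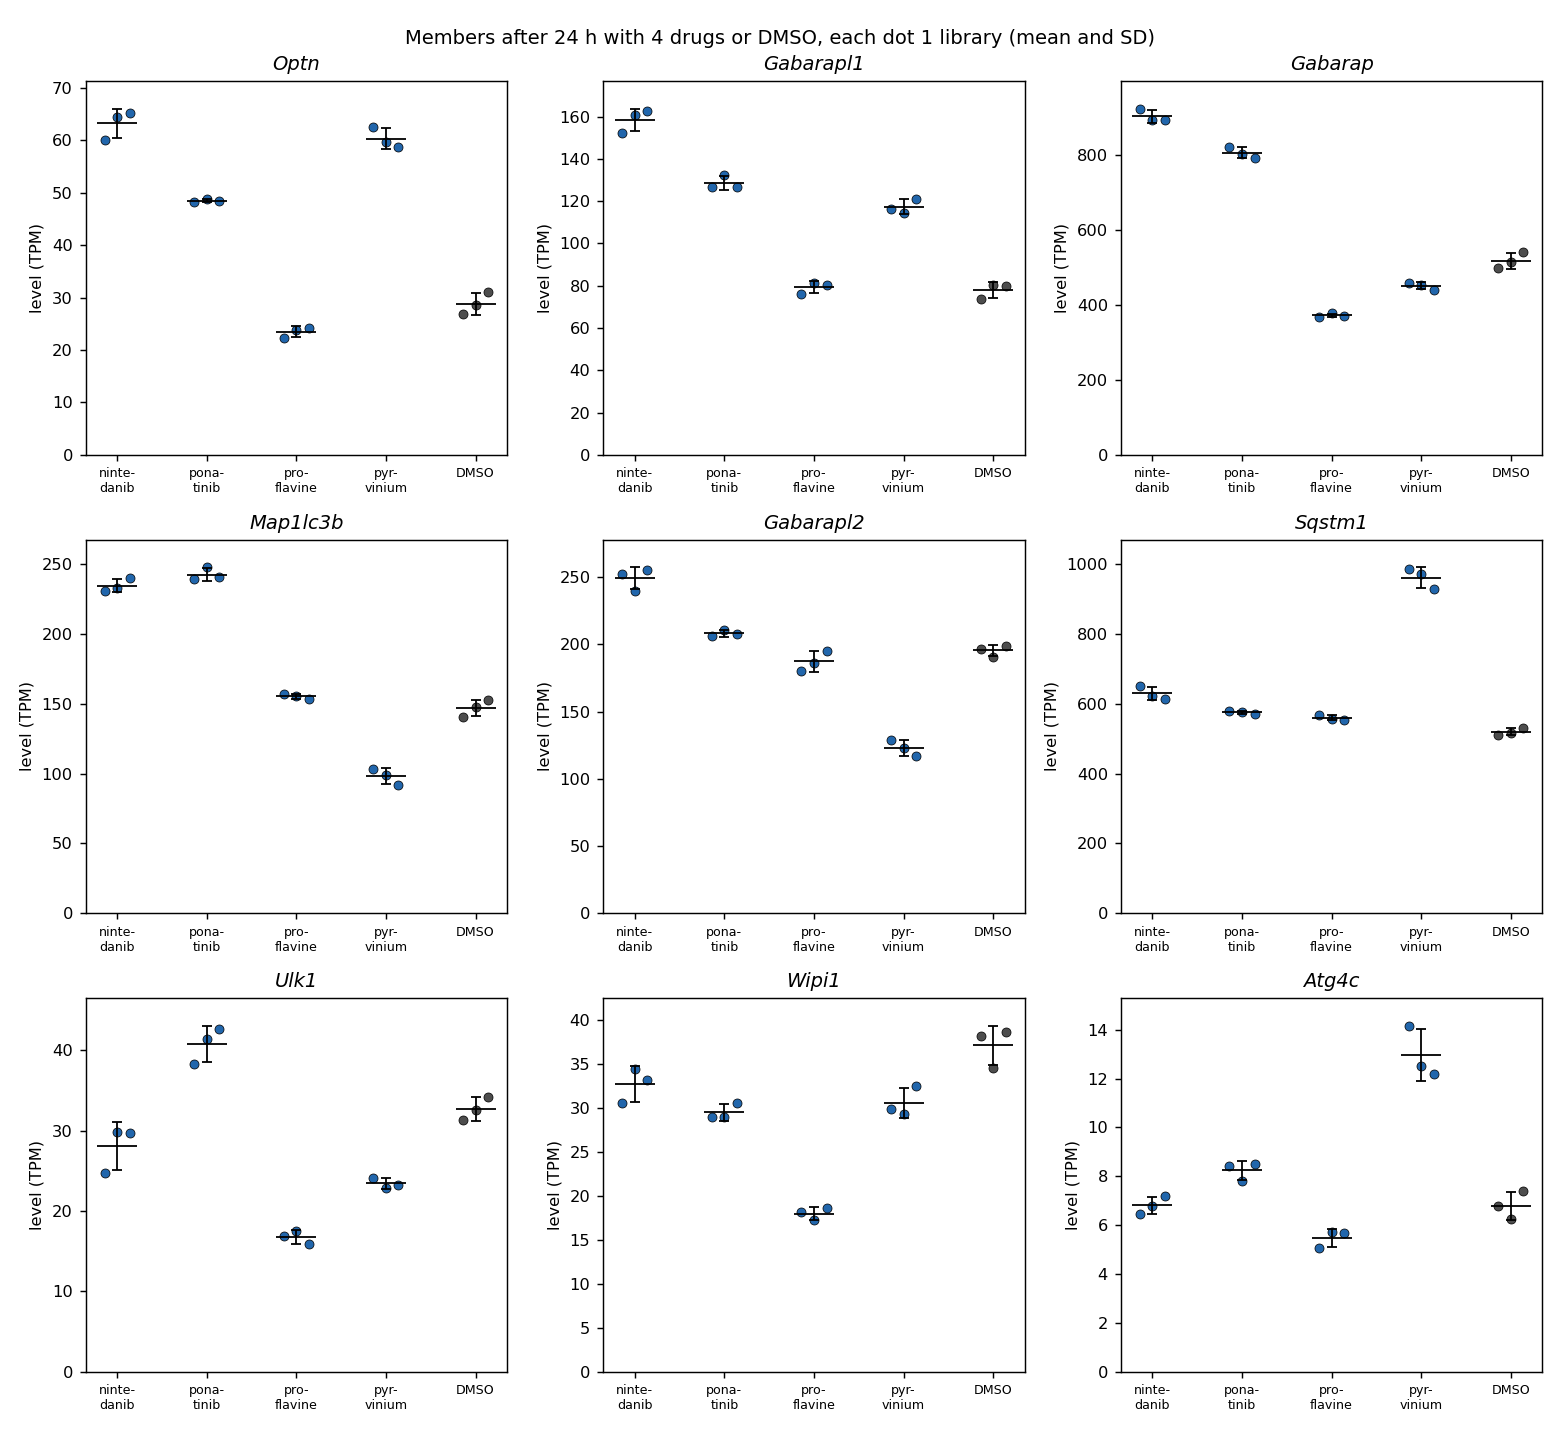
Level in TPM (vertical axis, from 0) of 9 members after 24 h with 4 drugs or DMSO; each dot is 1 library, and the bar and whiskers are the mean and SD of 3 libraries. Gabarap lay at 793 to 924 TPM with nintedanib and ponatinib, at 369 to 459 TPM with proflavine and pyrvinium and at 499 to 541.5 TPM in DMSO, and Sqstm1 was highest with pyrvinium.

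Drugs given at the same dose were set against each other. Between ponatinib and pyrvinium, both at 1 µM, 27 members differed, 75.0% where 77.7% of all genes did, with 16 higher with ponatinib (44.4% of members and 48.1% of all genes) and 11 lower (30.6% and 29.5%). Under either scaling the split was 9 higher and 18 lower, and the median of all genes moved from 0.14 to -0.006 after median-ratio scaling. Map1lc3b differed by 1.30 ± 0.04 (adjusted p = 4.27e-13), Gabarap by 0.84 ± 0.031 and Ulk1, with 38.3, 41.5 and 42.7 TPM with ponatinib and 24.2, 22.9 and 23.3 TPM with pyrvinium, by 0.77 ± 0.069, all higher with ponatinib. Sqstm1 differed by -0.74 ± 0.03, Atg4c by -0.59 ± 0.076 and Atg2b by -0.51 ± 0.078, lower with ponatinib, where Atg4c had 8.44, 7.80 and 8.49 TPM and Atg2b 13.1, 14.2 and 14.4 TPM with ponatinib, and Atg2b 20.8, 20.5 and 19.3 TPM with pyrvinium. The calls of these 6 genes held under every alternative run.

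Between nintedanib and proflavine, both at 3 µM, 26 members differed, 72.2% where 75.7% of all genes did, with 20 higher with nintedanib (55.6% of members and 49.6% of all genes) and 6 lower (16.7% and 26.1%). The split was 15 higher and 12 lower after median-ratio scaling and 16 and 13 with the length trend removed, and the median of all genes moved from 0.164 to 0.008 and -0.005. All 5 ATG8 genes were higher with nintedanib, led by Gabarap (1.28 ± 0.031) and Map1lc3a (1.09 ± 0.061), and Optn, with 22.3, 23.8 and 24.3 TPM with proflavine, was higher with nintedanib by 1.39 ± 0.053. Lower with nintedanib were Atg2b (-0.59 ± 0.078), with 10.2, 13.4 and 13.02 TPM with nintedanib, Atg2a (-0.29 ± 0.08), with 25.6, 23.1 and 22.5 TPM with proflavine, and Atg16l1 (-0.21 ± 0.059), with 20.2, 22.4 and 23.6 TPM with nintedanib. None of these pairs of groups overlapped. Under the 2 scalings the difference was -0.46 and -0.48 for Atg2a and -0.38 and -0.39 for Atg16l1.

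Other genes of the pathway, grouped in 8 lists around the members, are given for some comparisons only. Their counts stand beside the share of all genes called in the same direction, and genes named singly are picked from these lists. Counts after median-ratio scaling, an alternative chosen for these lists after seeing the data, are given for the mTORC1 list with drugs and for the ER-phagy and fusion lists. Of the 17 genes of mTORC1 and its inputs, 16 were tested in the FPKM systems. Tunicamycin raised 8 and lowered 2 of them with each siRNA, where 26.1% of all genes were raised and 41.1% lowered with Son siRNA and 26.6% and 42.4% with control siRNA. Sesn2, an inhibitor of mTORC1 in stress, had the largest rise, to 52.0 FPKM with Son siRNA against 9.02 FPKM in DMSO, and to 49.2 FPKM with control siRNA against 8.34 FPKM in DMSO. Ponatinib raised 12 of 17 and lowered none, where 41.1% of all genes were raised and 21.4% lowered. Nintedanib raised 6 and lowered 3 (34.3% and 22.1% of all genes), proflavine 5 and 5 (27.8% and 42.4%) and pyrvinium 10 and 6 (36.6% and 40.8%). After median-ratio scaling ponatinib raised 12 and lowered 2, nintedanib raised 5 and lowered 6, and proflavine raised 8 and lowered 4. Rragd, a GTPase that brings mTORC1 to lysosomes, had 32.0 TPM with nintedanib, 19.1 TPM with ponatinib and 18.6 TPM with pyrvinium, against 2.55 TPM in DMSO. Son siRNA in DMSO raised 3 and lowered 2 of the 16 (20% and 16.1% of all genes), with Tsc2, an mTORC1 inhibitor, at 13.8 FPKM against 16 FPKM. Of 7 AMPK genes, 6 were tested in the siRNA system, where Son siRNA in DMSO raised 1 and lowered 1 (20% and 16.1% of all genes). Pyrvinium raised 2 and lowered 5 of the 7 (36.6% and 40.8%). Prkag1, a regulatory subunit, was lowered by Son siRNA, to 52.7 FPKM against 71.1 FPKM in DMSO, and by pyrvinium, to 93.6 TPM against 189 TPM.

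Of the 8 transcription factors, tunicamycin raised 5 and lowered 2 with Son siRNA and raised 6 and lowered 2 with control siRNA, where 26.1% and 26.6% of all genes were raised and 41.1% and 42.4% lowered in these arms. Ddit3 and Atf4 changed most. Tfeb, which drives lysosome and autophagy genes, was lowered by tunicamycin, to 10.8 FPKM with Son siRNA against 13.4 FPKM in DMSO, and to 8.15 FPKM with control siRNA against 10.8 FPKM. Son siRNA raised it in both conditions. Of the 7 factors tested in the drug system, nintedanib raised 3 and lowered none (34.3% and 22.1% of all genes). Ponatinib raised 3 and lowered 1 (41.1% and 21.4%), proflavine 2 and 4 (27.8% and 42.4%) and pyrvinium 3 and 3 (36.6% and 40.8%). Nintedanib raised Tfeb to 38.5 TPM, and proflavine and pyrvinium lowered it to 16.2 and 12.9 TPM, against 23.1 TPM in DMSO. Its relative Mitf had 7.99 TPM with nintedanib and 5.91 TPM with proflavine, against 2.77 TPM in DMSO. Of 12 other initiation and phagophore factors, 11 were tested in the siRNA system. Son siRNA in tunicamycin raised 1 and lowered 6 of these (30.6% and 20.4% of all genes). Among the lowered was Wdr45, a WIPI relative, at 14.4 FPKM against 21.7 FPKM. Of the 12, proflavine raised 2 and lowered 8 (27.8% and 42.4%) and pyrvinium raised 4 and lowered 4 (36.6% and 40.8%). Trp53inp2, which binds ATG8 proteins, was lowered by proflavine and pyrvinium, to 27.1 and 24.1 TPM against 91.5 TPM in DMSO.

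Of the 8 ER-phagy receptors, tunicamycin lowered 5 in each siRNA arm and raised none with Son siRNA and 1 with control siRNA, where 41.1% and 42.4% of all genes were lowered. In the CRISPRa system it raised 1 and lowered 3 in the libraries labelled Son sgRNA (22.7% and 26.6% of all genes) and raised 1 and lowered 2 with control sgRNA (24.2% and 14.1%). After median-ratio scaling it raised 1 and lowered 5 with Son siRNA, raised 2 and lowered 4 with control siRNA, and raised none and lowered 3 in the libraries labelled Son sgRNA and 4 with control sgRNA. Retreg3, which bends ER membrane, fell to 12.7 FPKM with Son siRNA against 29.0 FPKM in DMSO, and to 9.45 FPKM with control siRNA against 24.2 FPKM in DMSO. Nintedanib raised 7 of the 8 (34.3% of all genes) and ponatinib 6 (41.1%), with none lowered, whereas proflavine lowered 7 (42.4%) and raised Retreg1 alone, and pyrvinium raised 3 and lowered 5 (36.6% and 40.8%). After median-ratio scaling nintedanib and ponatinib each raised 5 and lowered none, and the counts for proflavine and pyrvinium did not move. Of the 8 mitophagy genes, nintedanib raised none and lowered 3 (34.3% and 22.1% of all genes) and ponatinib raised 3 and lowered 3 (41.1% and 21.4%). Proflavine raised 3 and lowered 4 (27.8% and 42.4%) and pyrvinium raised 1 and lowered 4 (36.6% and 40.8%). The hypoxia-induced receptor gene Bnip3 was lowered by every drug, to 175 TPM with nintedanib, 104 TPM with ponatinib, 167 TPM with proflavine and 61.0 TPM with pyrvinium, against 379 TPM in DMSO. It was also lowered by tunicamycin, to 23.2 FPKM with Son siRNA against 60.9 FPKM in DMSO, and to 21.2 FPKM with control siRNA against 51.4 FPKM. Of the 7 mitophagy genes tested there, tunicamycin raised none and lowered 5 with Son siRNA (26.1% and 41.1% of all genes). With control siRNA it raised 1 and lowered 6 (26.6% and 42.4%). Of 6 other receptors and adaptors, tunicamycin raised 2 and lowered 2 with Son siRNA (26.1% and 41.1% of all genes). With control siRNA it raised 3 and lowered 2 (26.6% and 42.4%), and pyrvinium raised 3 and lowered 3 (36.6% and 40.8%). Stbd1, a receptor for glycogen, rose to 22.6 FPKM in tunicamycin with Son siRNA against 1.67 FPKM in DMSO, to 28.5 FPKM with control siRNA against 2.05 FPKM, and to 72.5 TPM with pyrvinium against 6.74 TPM in DMSO.

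The 14 genes of fusion between autophagosome and lysosome were lowered by tunicamycin in 10 cases with Son siRNA and 8 with control siRNA, with 1 raised in each arm, where 41.1% and 42.4% of all genes were lowered. After median-ratio scaling 8 were lowered and 2 raised with Son siRNA and 5 lowered and 3 raised with control siRNA. The gene raised as deposited was Epg5, a tether, with 9.81 FPKM in tunicamycin and Son siRNA against 5.28 FPKM in DMSO, and 11.4 FPKM in tunicamycin and control siRNA against 5.96 FPKM. Nintedanib raised 9 of the 14 (34.3% of all genes) and ponatinib 10 (41.1%), with none lowered, led by Vps18 for nintedanib (50.3 TPM against 29.7 TPM in DMSO) and Vps11 for ponatinib (76.9 TPM against 47.4 TPM in DMSO), both subunits of membrane tethering complexes. Proflavine raised 5 and lowered 9 (27.8% and 42.4% of all genes), and pyrvinium raised 6 and lowered 3 (36.6% and 40.8%). After median-ratio scaling nintedanib raised 8 and lowered 1, ponatinib raised 9 and lowered 2, proflavine raised 5 and lowered 6, and pyrvinium raised 8 and lowered 3. In the CRISPRa system, tunicamycin raised 2 and lowered 2 of these genes in the libraries labelled Son sgRNA and raised 2 and lowered 1 with control sgRNA (22.7% and 26.6%, and 24.2% and 14.1%, of all genes). After median-ratio scaling these were 3 raised and 2 lowered in the libraries labelled Son sgRNA and 1 raised and 3 lowered with control sgRNA. Son siRNA lowered Vps16, of the same tethering complexes, to 9.47 FPKM against 13.1 FPKM in DMSO and to 8.08 FPKM against 13.1 FPKM in tunicamycin.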

How the data were processed

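RNA with poly(A) tails was sequenced from mouse embryonic fibroblasts, and 43 libraries in 3 systems were used. Expression values were used as the authors deposited them: FPKM (fragments per length and library total) for the 28 siRNA and CRISPRa libraries, and TPM (transcripts per length and library total) for the 15 drug libraries. Per the submitters' processing notes, Trimmomatic, Trim Galore, HISAT2, Salmon, Cufflinks and the mouse build mm10 were used; their roles, versions and settings are not given there. In the deposited FPKM values, 27 gene names had become dates. Read counts are not used here, and reads per unit of value, a rough guide to depth, were read from the steps between low values.

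Each system was fitted by itself with limma 3.58.1 in R 4.3.3 on log2(value + 1), with 1 term per group, a variance trend and two-sided tests, for genes with a mean of at least 1. P-values were adjusted by Benjamini-Hochberg over all genes tested in a comparison, and 16 comparisons were made. The fit was tested on simulated data. Alternatives were a pseudocount of 0.1, no filter, median-ratio scaling, removal of the trend with transcript length, a fit of the 2 groups alone, a replicate block and leaving out each library.

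The members, the gene lists and the tests were chosen with earlier results of these data known. Values in every library are given for up to 3 raised and 3 lowered called members of largest change per comparison whose higher group averaged 5 or more, and other members by counts. Protein sequences were not used here. Promoter sequences are from RefSeq on GRCm38.p6, gene positions from GENCODE M21 on mm10 (GRCm38).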

Additional observations from a re-analysis of the deposited data

Results flagged for a closer look

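Of the 144 groups of 4 libraries examined, 36 members in 4 siRNA groups, 11 held a library far from the other 3, and chance flags about 1 in 20 such groups. With Son siRNA in tunicamycin, library D had 38.38 FPKM of Becn1 (the others 37.55 to 37.64), 11.95 FPKM of Atg9a (13.23 to 13.38) and 40.0 FPKM of Map1lc3a (45.06 to 46.01). In the same group library B had 23.63 FPKM of Atg3 (25.14 to 25.25) and 49.64 FPKM of Nbr1 (51.15 to 51.41). With control siRNA in tunicamycin, library D had 50.95 FPKM of Becn1 (49.12 to 49.2) and 13.98 FPKM of Uvrag (15.45 to 15.68). With Son siRNA in DMSO, library C had 14.34 FPKM of Wipi1 (13.16 to 13.35) and library A 203.9 FPKM of Sqstm1 (206.3 to 206.7). With control siRNA in DMSO, library A had 5.373 FPKM of Ulk2 (6.24 to 6.354) and library C 8.66 FPKM of Atg4d (9.434 to 9.567). The CRISPRa and drug groups, of 3 libraries each, were not examined in this way.

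The tunicamycin response differed between Son siRNA and control siRNA, by a test of the difference itself in limma, for Atg13 (-0.344 on the log2 scale, adjusted p = 0.0295) and Sqstm1 (-0.241, adjusted p = 0.0384). Both rose with tunicamycin in all 4 libraries of each arm relative to all DMSO libraries, and rose less with Son siRNA. The libraries on which these calls depend are named beside the result above.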

How the results depend on the processing

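Of the 81 named log2 fold changes, 69 were called in every alternative run, 12 lost the call in at least 1, and 0 changed sign. Members called changed by over 1.5 times only in 5 comparisons. The difference of responses between siRNA arms had 0 members with no filter on low values, and 0 to 2 without 1 library. Son sgRNA against control sgRNA in DMSO had 3 in a fit of the 2 groups alone, and 4 to 9 without 1 library. The same comparison in tunicamycin had 8 after median-ratio scaling, 11 with the length trend removed, and 0 to 8 without 1 library. Tunicamycin against DMSO had 9 to 18 without 1 library with control sgRNA, and 9 with Son sgRNA in a fit of the 2 groups alone. The cause was not tested.

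The replicate block, which treats libraries of the same letter or number as paired, gave 3 members for Son sgRNA against control sgRNA in tunicamycin, where the fit without it gave 5. Its counts in the other 15 comparisons were within 1.5 times. Deviations of libraries with the same letter or number correlated by -0.189 to 0.174 in the siRNA system, -0.223 to 0.182 in the CRISPRa system and -0.067 to 0.147 in the drug system. Those with different ones correlated by -0.241 to 0.327, -0.17 to 0.261 and -0.143 to 0.149 in turn. The values show no closer match within a letter or number, but with so few libraries a group they cannot decide whether cultures were shared. The labels carry no pairing.

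Over all genes, raised genes made up 27.4% to 65.8% of calls in 14 comparisons as deposited and 45.1% to 52.2% after median-ratio scaling, so that small changes rest on the scaling. Depth in reads per library is not known from these values, and with 3 libraries a group small changes may be missed.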

Other observations

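Among the mitophagy genes, Pink1, a kinase of damaged mitochondria, had 38.3 ± 0.921 TPM with ponatinib and 14.9 ± 1.46 TPM with proflavine, against 23.9 ± 1.73 TPM in DMSO (SD, n = 3 each), and was called higher with ponatinib and lower with proflavine in limma. Ddit4 (REDD1), a stress-induced inhibitor of mTORC1, fell to 81.0 TPM with nintedanib, 37.6 TPM with proflavine and 61.9 TPM with pyrvinium, against 131 TPM in DMSO. With ponatinib it was not called lowered as deposited, nor was any other gene of the mTORC1 list. Trp53inp1, which binds ATG8 proteins, had 28.6 TPM with ponatinib and 2.98 TPM with proflavine, against 11.7 TPM in DMSO, and was called in both.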
